A study of Arabidopsis thaliana with 21 samples.

Results

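The results concern the loss of ABA2 in plants that already lacked GA20OX1. The 3 arrays titled aba2/ga20ox1 were set against the 3 arrays titled ga20ox1, so that 6 of the 21 arrays in the series entered the comparison, chosen by their titles alone. The aba2/ga20ox1 plants carried both mutations and the ga20ox1 plants carried the ga20ox1 mutation only, so GA20OX1 was mutated in both groups. All plants were Arabidopsis thaliana in the Col-0 background, soil-grown at 22 °C for 21 days, and RNA came from their aerial parts, labelled as rosette tissue. The labels do not state the alleles of either gene, the promoter of the overexpression lines or how many plants were behind each array. For comparison the same mutation was followed in 2 other backgrounds, as aba2 against Col-0 and as aba2/GA20OX1-OE against GA20OX1-OE, where OE marks an overexpression line. The seventh genotype, ABA2-OE, was used only to estimate the spread between arrays.

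Abscisic acid (ABA) is the plant hormone that closes stomata and switches on genes for tolerance of drought, cold and salt. ABA2 is a short-chain dehydrogenase that converts xanthoxin to abscisic aldehyde, the step before the last in ABA synthesis, and plants without it are ABA-deficient and wilt easily. GA20OX1 is a gibberellin 20-oxidase that makes precursors of the growth-promoting gibberellins, and its mutants are short. ABA and gibberellin act against each other in many steps of growth, germination and flowering.

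Signals are given as log2 of the deposited array signal, and differences are aba2/ga20ox1 minus ga20ox1 on that scale, with a standard error (SE) from limma. A probe set, the group of probes that reports 1 transcript, was called changed when its Benjamini-Hochberg adjusted p from limma over all 15923 probe sets tested was under 0.05. A log2 signal of 5.26 was the low-signal bound, under which the lowest 30% of probe sets lay by their mean over the 21 arrays. Where a genotype mean lay under this bound, no fold is given, and the difference after adding a pseudocount of 20.1 to the signal stands beside the fitted one. Only 55.0% of the probe sets tested had 1 gene named by the annotation used here, and many well-studied genes, ABA2 and GA20OX1 among them, were not named, so their own transcripts were not analysed here. Genes known here by a locus number alone carry no description in that annotation, and none is given.

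The 6 arrays had been scaled to the same trimmed mean before deposit. Median signals ran from 135 to 147 on the aba2/ga20ox1 arrays and from 136 to 168 on the ga20ox1 arrays. At low signal the ga20ox1 arrays varied more, with a 25th percentile of 24.3 to 34.4 against 27.2 to 29.0 in aba2/ga20ox1. Correlations between arrays of 1 genotype were 0.974 to 0.979 in aba2/ga20ox1 and 0.958 to 0.975 in ga20ox1. RCA, the rubisco activase that marks green leaf tissue, was among the brightest transcripts, at 14.85, 14.68 and 14.47 in aba2/ga20ox1 against 15.07, 14.77 and 14.61 in ga20ox1, and did not pass the test (difference -0.15, adjusted p = 0.585). The shoot meristem marker CLV3 was under the low-signal bound in both genotypes. No label names separate plants or harvests for the 3 arrays of a genotype. The p-values therefore rest on the spread between arrays within genotypes, pooled over all 21 arrays of the series, which may be technical.

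Loss of ABA2 changed 867 probe sets, 5.44% of those tested. In aba2/ga20ox1, 459 probe sets were higher (2.88%) and 408 were lower (2.56%), with median differences of 0.88 and -0.89. The median difference over all probe sets tested was -0.04. Of the called probe sets, 184 rose and 168 fell by at least 2-fold in the fit. The ga20ox1 mean was above the low-signal bound for 409 of the 459 higher ones, and the aba2/ga20ox1 mean for 380 of the 408 lower ones. At 8-fold or more in the fit without a pseudocount the split was uneven, with 31 higher and 3 lower. Of these 31 probe sets, 23 had a ga20ox1 mean under the low-signal bound, and all 31 had an aba2/ga20ox1 mean above it. The pseudocount made such differences smaller in both directions, and the split was not counted with it. The gene ATA27 went from 4.68 to 2.48 and the probe set 251977_at from -5.04 to -2.57. Arrays of the genotypes did not overlap for 455 of the 459 higher and 397 of the 408 lower probe sets, while over all probe sets tested 11% separated upward and 10.7% downward.

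The number of calls depended on the processing and on single arrays. It was 3339 with array quality weights (1626 higher and 1713 lower), 1195 with the replicate number as a block (588 higher and 607 lower) and 559 with the 2 groups alone in the fit, so which direction held more calls was not settled. In the 6 fits that each left out 1 of the 6 arrays, 162 of the higher (35.3%) and 152 of the lower probe sets (37.3%) were called every time. The count of calls was 460 without ga20ox1 replicate 2, 465 without aba2/ga20ox1 replicate 3, 530 without ga20ox1 replicate 3 and 534 without aba2/ga20ox1 replicate 1.

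**Figure D1:**
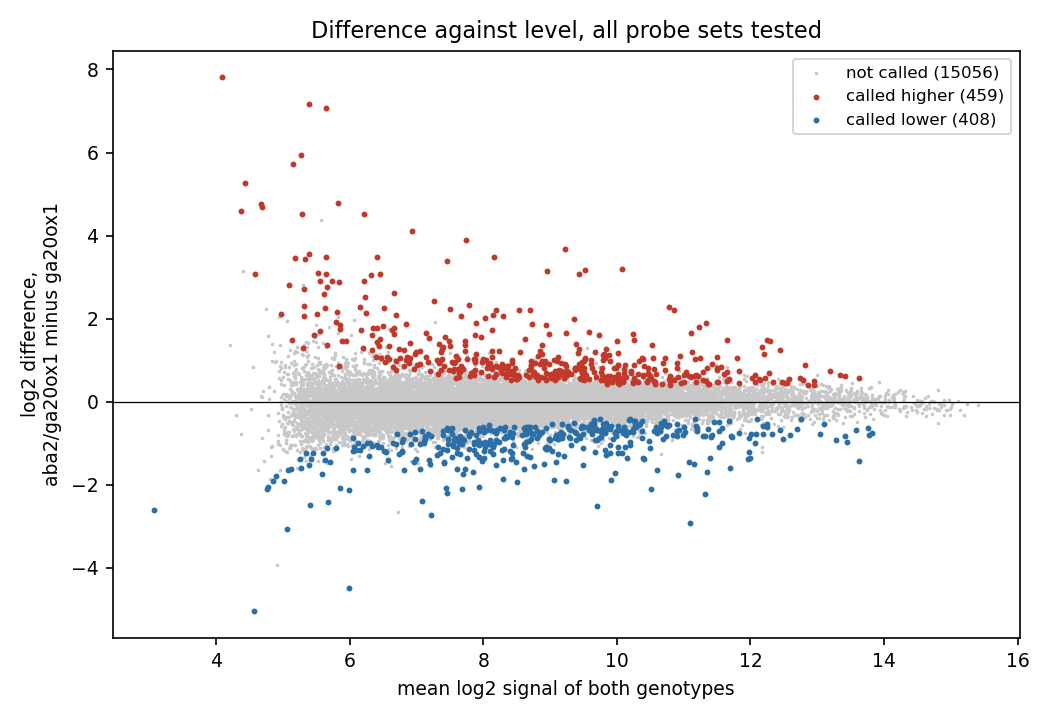
Log2 difference (aba2/ga20ox1 minus ga20ox1, vertical axis) against the mean log2 signal of both genotypes (horizontal axis), 1 point for each of the 15923 probe sets tested. The 459 probe sets called higher include 31 that rose by 8-fold or more without a pseudocount, most of them at low mean signal, and the 408 called lower include 3 that fell as far.

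Most of the 12 genes with the largest rises had signals under the low-signal bound in ga20ox1 and well above it in aba2/ga20ox1. AT5G62080 was at 9.83, 8.90 and 8.79 in aba2/ga20ox1 and at 4.30, 0.29 and 1.76 in ga20ox1. The difference was 7.06 (SE 0.76, adjusted p = 4.75e-06), or 4.47 with the pseudocount. AT3G52130 was at 8.07, 8.5 and 8.15 in aba2/ga20ox1 against 1.60, 2.11 and 3.18 in ga20ox1. For both genes every aba2/ga20ox1 array was above the low-signal bound and every ga20ox1 array was under it. Their means in ABA2-OE were 8.09 and 6.88, also above those in Col-0 (5.18 and 3.28), which was not tested.

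Markers of the anther and its tapetum, the cell layer that feeds developing pollen, stood out among the tissue markers. The annotation named 3 of them. AT5G07230 was at 8.78, 7.75 and 7.52 in aba2/ga20ox1 against 0.88, 1.39 and 4.58 in ga20ox1, a difference of 5.73 (SE 0.94, adjusted p = 0.00073), or 3.32 with the pseudocount. ATA27, the anther beta-glucosidase BGLU20, was at 6.80, 6.37 and 7.90 in aba2/ga20ox1 against 3.96, 2.76 and 0.33 in ga20ox1, a difference of 4.68 (SE 1.03, adjusted p = 0.00823), or 2.48 with the pseudocount. The call of ATA27 was lost without aba2/ga20ox1 replicate 3 (adjusted p = 0.0523) and without ga20ox1 replicate 3 (adjusted p = 0.0607). The third, the tapetum transcription factor AMS, was left out of the test by the low-signal filter. Both genes tested were thus called higher, against 2.88% of all probe sets tested. The summed signal of the 3 genes was 353 to 622 on the aba2/ga20ox1 arrays and 17.1 to 35.2 on the ga20ox1 arrays, and all 3 had means above the bound in aba2/ga20ox1 and none in ga20ox1. Higher means were not limited to plants without ABA2. In ABA2-OE the means of AT5G07230 and ATA27 were 7.07 and 5.19, against 3.70 and 3.15 in Col-0, a difference that was not tested.

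The named pollen markers did not rise. ACT11, an actin of reproductive tissue and pollen, was at 7.11, 6.88 and 7.24 in aba2/ga20ox1 and at 8.29, 7.81 and 7.98 in ga20ox1, lower by a difference of -0.95 (SE 0.19, adjusted p = 0.004). The other named pollen actin, ACT12, was under the bound in both genotypes. The summed signal of both actins was 121 to 172 on the aba2/ga20ox1 arrays against 237 to 317 on the ga20ox1 arrays. In these bulk samples a different share of a cell type and a different amount of RNA per cell cannot be told apart. The part of flower tissue in these changes was not tested.

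Among the other large rises, AT2G20870 was well measured in both genotypes. It was at 11.18, 10.63 and 11.39 in aba2/ga20ox1 against 7.85, 7.0 and 7.31 in ga20ox1, a 12.8-fold rise (difference 3.68, SE 0.50, adjusted p = 8.66e-05). AT5G22430 was at 9.89, 9.38 and 10.46 in aba2/ga20ox1 against 6.96, 5.06 and 7.22 in ga20ox1, an 11.3-fold rise (adjusted p = 0.00031). The 12 largest rises were chosen only among genes in which the arrays of the genotypes did not overlap. LCR66, a cysteine-rich peptide also named PLANT DEFENSIN 2.4, was at 8.48, 7.86 and 8.28 in aba2/ga20ox1 against 4.46, 4.10 and 1.72 in ga20ox1, with a pseudocount difference of 3.25 (adjusted p = 0.00284 in the fit without it). The remaining 5 of the 12 largest rises were AT1G68875, AT5G16920, AT1G66850, AT1G47980 and AT4G23680, each under the bound in ga20ox1, with pseudocount differences from 2.11 to 3.24. The call of AT1G66850 was lost without ga20ox1 replicate 2 (adjusted p = 0.0684). That of AT1G68875 was lost without aba2/ga20ox1 replicate 1, without aba2/ga20ox1 replicate 3 and without ga20ox1 replicate 3 (adjusted p up to 0.0877).

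The rises with the smallest p were in genes with means above the low-signal bound in both genotypes. AT4G21870 was at 11.40, 11.79 and 11.80 in aba2/ga20ox1 and at 8.30, 8.35 and 8.78 in ga20ox1, a 9.1-fold rise (SE 0.22 on a difference of 3.19, adjusted p = 7.36e-09). AT3G23550 was at 10.64, 11.21 and 11.48 in aba2/ga20ox1 against 7.75, 8.02 and 8.03 in ga20ox1, a 9.05-fold rise (adjusted p = 6.32e-08). These were the smallest adjusted p-values among rises in genes with a name or locus number. AT2G17710 rose 4.6-fold (adjusted p = 1.37e-06) and AT1G78450 rose 4.25-fold (adjusted p = 2.1e-06), and all 4 genes were called in each of the 6 fits with 1 array left out.

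**Figure D2:**
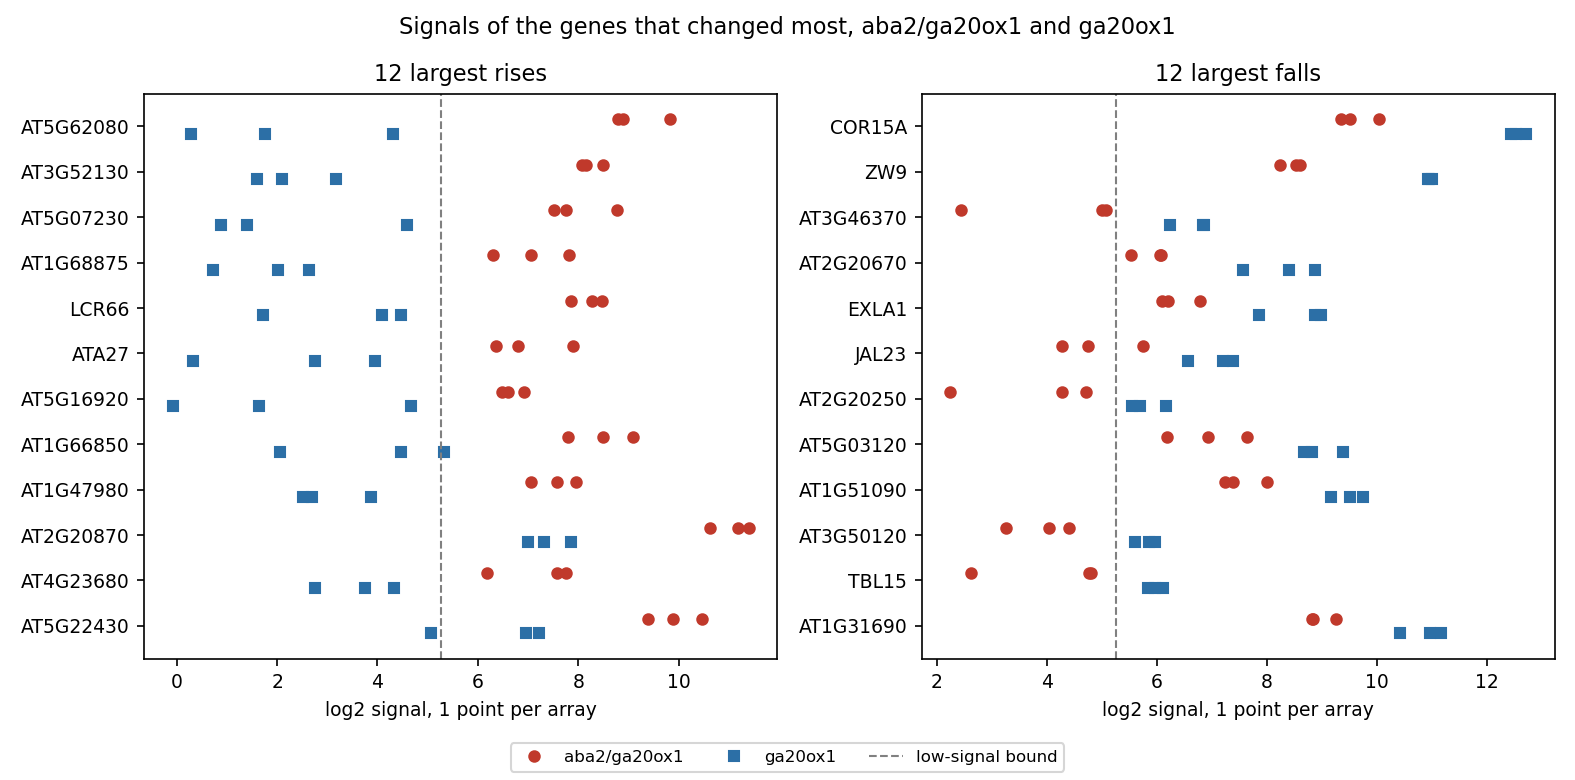
Log2 signals of the 12 genes with the largest rises (left panel) and the 12 with the largest falls (right panel), 1 point per array, circles for aba2/ga20ox1 above squares for ga20ox1, and a dashed line at the low-signal bound of 5.26. Most of the rising genes lie under the bound in ga20ox1, while COR15A and ZW9, the largest falls, are well above it in both genotypes. The 24 genes were chosen only among called genes in which the arrays of the 2 genotypes did not overlap.

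The largest fall in a named gene was in COR15A, which encodes a chloroplast protein that protects membranes in the cold and is switched on by cold and by ABA. It was at 9.35, 9.51 and 10.03 in aba2/ga20ox1 against 12.44, 12.70 and 12.53 in ga20ox1, a fall of 7.61-fold (difference -2.93, SE 0.33, adjusted p = 8.73e-06). ZW9 had the smallest adjusted p of any falling gene. It was at 8.24, 8.61 and 8.52 in aba2/ga20ox1 against 10.92, 11.00 and 10.95 in ga20ox1, a fall of 5.67-fold (difference -2.50, SE 0.16, adjusted p = 5.91e-09). No array of aba2/ga20ox1 came within 2 log2 units of any ga20ox1 array for either gene.

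The list of ABA and cold induced stress genes held 32 genes, of which 5 were named and tested. Like all lists here, it was chosen with earlier results of these data known, so its shares only describe it. All 5 were lower on every aba2/ga20ox1 array than on any ga20ox1 array, against 10.7% of all probe sets tested. Of the 5, 3 were called lower, against 2.56% of all, and none higher, and their median difference was -1.22 against -0.04 over all probe sets. COR47, a dehydrin that binds water and membranes, was at 11.50, 11.36 and 11.23 in aba2/ga20ox1 against 12.28, 12.55 and 12.92 in ga20ox1 (difference -1.22, SE 0.19, adjusted p = 0.000417). HIS1-3, a linker histone induced by drought, was at 4.69, 3.81 and 5.65 in aba2/ga20ox1 against 6.0, 6.13 and 7.22 in ga20ox1, with a pseudocount difference of -1.18 (adjusted p = 0.0515 on that scale and 0.039 without the pseudocount). The 2 members that did not pass were COR15B, the paralogue of COR15A, with a difference of -0.68 (adjusted p = 0.0564), and LTI30, another dehydrin, with -0.62 (adjusted p = 0.0834). The call of HIS1-3 was lost in 4 of the 6 fits with 1 array left out, with adjusted p up to 0.196 without ga20ox1 replicate 3. COR15A and COR15B are close copies, and how far their probe sets share signal was not tested.

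On the side of ABA metabolism, the single list member named was UGT71C5, a glucosyltransferase that inactivates ABA by making its glucose ester. It was at 9.83, 9.72 and 10.03 in aba2/ga20ox1 against 9.05, 8.92 and 9.11 in ga20ox1, a 1.78-fold rise (difference 0.83, SE 0.18, adjusted p = 0.00656). The ABA receptors, phosphatases, kinases and factors had no member named here and were not analysed.

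The other large falls were spread over several gene families. MSRB6, a methionine sulfoxide reductase that repairs oxidised proteins, was at 8.89, 8.97 and 9.46 in aba2/ga20ox1 against 11.19, 10.87 and 10.42 in ga20ox1, a fall of 3.3-fold (adjusted p = 8.73e-06). JAL23, a jacalin-related lectin, was at 4.76, 4.27 and 5.74 in aba2/ga20ox1 against 7.20, 6.56 and 7.38 in ga20ox1, with a pseudocount difference of -1.57 (adjusted p = 0.00214 in the fit without it). AT1G31690 was called lower on both of its probe sets, with differences of -1.87 and -1.63. TBL15, of the TRICHOME BIREFRINGENCE-LIKE family that acetylates cell wall polysaccharides, was at 2.63, 4.8 and 4.77 in aba2/ga20ox1 against 6.11, 5.84 and 5.97 in ga20ox1, with a pseudocount difference of -1.08 (adjusted p = 0.00584 in the fit without it). Its call was lost with the 2 groups alone in the fit (adjusted p = 0.0972), and its fitted difference of -1.90 was -1.18 without aba2/ga20ox1 replicate 1. AT2G20670, AT5G03120 and AT1G51090 had differences of -2.38, -2.05 and -1.93, each with means above the bound in both genotypes. AT3G46370, AT2G20250 and AT3G50120 had aba2/ga20ox1 means under the bound and pseudocount differences of -1.54, -1.10 and -1.10. The call of AT3G46370 was lost without aba2/ga20ox1 replicate 3, without ga20ox1 replicate 2 and without ga20ox1 replicate 3 (adjusted p up to 0.107), and that of AT2G20250 without aba2/ga20ox1 replicate 1 and without ga20ox1 replicate 3 (adjusted p up to 0.0746).

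Sugar transporters of the SWEET family, which move sugars across membranes out of cells or between compartments, were the list with the most calls. Of 12 tested, 5 were called higher and 3 lower, against backgrounds of 2.88% and 2.56%, and their median difference was 0.34. This list too was chosen with earlier results of these data known. SWEET10, a plasma membrane exporter, was at 7.84, 7.48 and 7.68 in aba2/ga20ox1 against 5.28, 4.32 and 4.66 in ga20ox1, with a pseudocount difference of 2.23 (adjusted p = 0.000132 in the fit without it). SWEET1, a glucose transporter, was at 10.31, 10.64 and 10.21 in aba2/ga20ox1 against 9.85, 9.45 and 9.42 in ga20ox1 (difference 0.81, adjusted p = 0.00361). SWEET8, also named RUPTURED POLLEN GRAIN1 and needed in the tapetum and pollen, had a pseudocount difference of 1.09, and SWEET3 rose by a difference of 1.25.

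Among the SWEET genes that fell, SWEET4 was at 7.23, 6.99 and 7.24 in aba2/ga20ox1 against 8.28, 7.93 and 7.98 in ga20ox1 (difference -0.91, adjusted p = 0.00243). SWEET16, a transporter of the vacuole membrane, was at 6.97, 6.98 and 6.69 in aba2/ga20ox1 against 8.57, 8.40 and 7.13 in ga20ox1 (difference -1.15, adjusted p = 0.0184). SWEET13, a sucrose exporter of the leaf veins and the chromosomal neighbour of SWEET10, had a pseudocount difference of -0.81. SWEET10, SWEET1 and SWEET4 were called in each of the 6 fits with 1 array left out. SWEET3 was called in none of them (adjusted p up to 0.165), SWEET8 and SWEET13 in 1 each (adjusted p up to 0.139 and 0.16) and SWEET16 in 3 (adjusted p up to 0.12).

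Jasmonate marker genes of the defensin family rose. PDF1.2, an antifungal plant defensin induced by jasmonate and ethylene, was at 10.27, 9.85 and 10.93 in aba2/ga20ox1 against 8.34, 8.35 and 8.42 in ga20ox1, a 3.95-fold rise (difference 1.98, SE 0.37, adjusted p = 0.00212). Its near-identical relative PDF1.2b was at 11.74, 11.78 and 12.24 in aba2/ga20ox1 against 9.57, 9.64 and 9.73 in ga20ox1, a 4.83-fold rise (adjusted p = 0.00347). The probe sets of such close copies may share signal, so the 2 values are not separate observations. The third jasmonate gene tested, the thionin THI2.1, had a difference of -0.54 and did not pass (adjusted p = 0.495).

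In the wider list of plant defensins and LCR peptides, 3 of 6 tested were called higher, these being LCR66 and the close copies PDF1.2 and PDF1.2b, against 2.88% of all probe sets tested, and none was lower. LCR69, LCR68 and PDF1.4 had differences of -0.05, -0.26 and -0.41 and did not pass. The median of the 6 genes, 0.96, lies between these groups of values.

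Genes that loosen or rebuild the cell wall moved in both directions. Of 12 expansins and expansin-like genes tested, 1 was called higher and 2 lower, against 2.88% and 2.56% of all probe sets tested. Their median difference was -0.02. EXPA15, an alpha-expansin, was at 10.24, 9.95 and 10.00 in aba2/ga20ox1 against 9.39, 8.43 and 8.54 in ga20ox1 (difference 1.27, SE 0.23, adjusted p = 0.00177). EXPA16, of the same family, was at 7.42, 7.68 and 8.06 in aba2/ga20ox1 against 8.97, 9.22 and 9.15 in ga20ox1 (difference -1.39, SE 0.21, adjusted p = 0.000317). EXLA1, an expansin-like gene, was at 6.10, 6.19 and 6.78 in aba2/ga20ox1 against 7.85, 8.86 and 8.97 in ga20ox1 (difference -2.21, SE 0.63, adjusted p = 0.0426). EXPA15 and EXPA16 kept their calls in each fit with 1 array left out, whereas EXLA1 was called in 1 of the 6, with adjusted p up to 0.156 without ga20ox1 replicate 2.

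Among 5 xyloglucan-modifying enzymes, which cut and rejoin the hemicellulose tethers of the wall, XTH19 was higher and EXGT-A3, also named XTH27, was lower. For this and the next 2 lists, the shares over all probe sets tested were 2.88% called higher and 2.56% called lower. XTH19 was at 7.14, 6.87 and 6.67 in aba2/ga20ox1 against 4.87, 4.74 and 4.55 in ga20ox1, with a pseudocount difference of 1.58 (adjusted p = 0.0046 in the fit without it). EXGT-A3 had a difference of -0.70 (adjusted p = 0.0398), called in 1 of the 6 fits with 1 array left out, with adjusted p up to 0.165. XTH33, XTH32 and XTH16 had differences of 0.31, -0.36 and -0.31 and did not pass. Of 16 cellulose synthases and endoglucanases, only GH9B5 was called, lower, with a pseudocount difference of -1.0, and this call was lost in 4 of those 6 fits (adjusted p up to 0.141). Of 19 TRICHOME BIREFRINGENCE-LIKE genes, AT2G31110, also named TBL40, was called higher (difference 0.91, adjusted p = 0.00823), and TBL15 and TBL25 lower. A second probe set of AT2G31110 gave 0.54 and did not pass (adjusted p = 0.161). With 1 array left out, AT2G31110 lost its call without ga20ox1 replicate 3 (adjusted p = 0.0564) and TBL25 in 4 of the 6 fits (adjusted p up to 0.152).

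**Figure D3:**
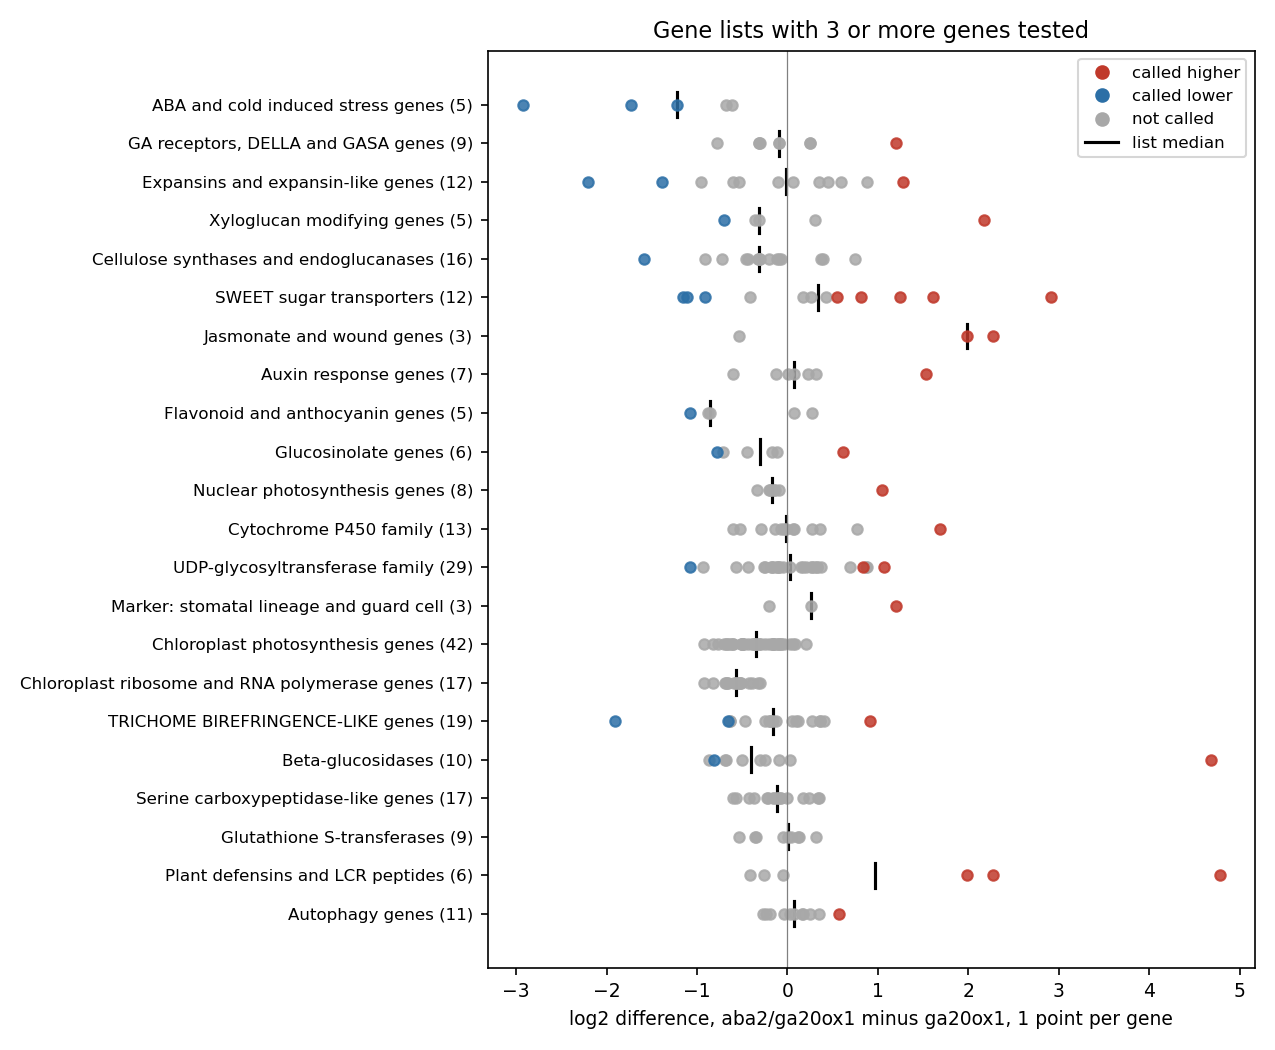
Log2 difference (aba2/ga20ox1 minus ga20ox1) of each tested gene in the lists with 3 or more genes tested, 1 point per gene, with the number tested in parentheses and the list median as a black bar. The 5 ABA and cold induced genes all lie under 0, the SWEET genes spread to both sides with 5 called higher and 3 lower, and the chloroplast lists hold no called gene.

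On the gibberellin side, 9 genes of the receptor, DELLA and GASA list were tested, with a median difference of -0.10. Of these, 1 was called, against 5.44% of all probe sets tested. The 1 called gene was AT1G22690, which is listed both among the GASA genes, small cysteine-rich peptides that respond to gibberellin, and among the guard cell markers. It was at 11.62, 11.89 and 11.64 in aba2/ga20ox1 against 10.88, 10.64 and 10.04 in ga20ox1, a 2.3-fold rise (difference 1.20, SE 0.21, adjusted p = 0.00102). The stomatal lineage factors SPCH and FMA had differences of 0.26 and -0.20 and did not pass, and MUTE was under the bound in both genotypes. The summed signal of the 4 stomatal markers, 3456 to 4166 on the aba2/ga20ox1 arrays against 1469 to 2173 on the ga20ox1 arrays, was therefore mostly that of AT1G22690. Genes of gibberellin synthesis and breakdown were not named here and were not analysed.

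Other hormone and metabolic lists also held called genes, while over all probe sets tested 2.88% were called higher and 2.56% lower. GH3.3, which conjugates auxin to amino acids, was at 7.92, 8.10 and 7.83 in aba2/ga20ox1 against 6.73, 6.95 and 5.56 in ga20ox1 (difference 1.54, adjusted p = 0.00989, and 0.0737 without ga20ox1 replicate 3), the 1 call among 7 auxin response genes. CYP71B22 was the 1 call among 13 cytochromes P450, with a 3.21-fold rise (adjusted p = 0.000131). Of 29 UDP-glycosyltransferases, UGT72E1, which glucosylates lignin precursors, and UGT71C5 were called higher and UF3GT lower. The call of UGT72E1 (difference 1.06) was lost without aba2/ga20ox1 replicate 3 and without ga20ox1 replicate 3 (adjusted p of 0.0887 and 0.0896).

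Of 5 flavonoid and anthocyanin genes tested, 1 was called lower, against 2.56% of all probe sets tested. Their median difference was -0.86. When the lowest 50% of probe sets were left out, UGT78D2 alone remained, at 0.28, so that setting gave no median of the list. UF3GT, an anthocyanin glycosyltransferase, was at 5.67, 5.56 and 6.55 in aba2/ga20ox1 against 7.62, 6.33 and 7.07 in ga20ox1 (difference -1.08, SE 0.32, adjusted p = 0.0491), and the arrays of the genotypes overlapped. DFR, the dihydroflavonol reductase at the entry to anthocyanins, and AT5MAT had differences of -0.88 and -0.86 and did not pass (adjusted p of 0.28 and 0.23). AT5MAT had an aba2/ga20ox1 mean under the bound and a pseudocount difference of -0.60. UGT78D2 and AT4G14090 had differences of 0.28 and 0.07. In the other backgrounds the difference of UF3GT was 0.28 and -0.25, and its call was lost in 4 of the 6 fits with 1 array left out (adjusted p up to 0.175).

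Of 6 glucosinolate genes, the transporter GTR2 was higher and the enzyme AOP1 lower, against 2.88% and 2.56% of all probe sets tested. GTR2, which loads these defence compounds into veins, was at 10.14, 10.34 and 10.03 in aba2/ga20ox1 against 9.67, 9.55 and 9.43 in ga20ox1 (difference 0.62, adjusted p = 0.0303). AOP1 had a difference of -0.78 (adjusted p = 0.0316). GTR1, the partner of GTR2, had a difference of -0.72 and did not pass (adjusted p = 0.0954), nor did BCAT4, UGT74B1 or AT2G31790. With 1 array left out GTR2 was called in 2 of 6 fits and AOP1 in 1 (adjusted p up to 0.114 and 0.182).

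For the lists that follow, photosynthesis genes first, the shares over all probe sets tested were 2.88% called higher and 2.56% called lower. Of 8 nuclear genes tested, LHCB4.3, a minor antenna protein of photosystem II, was called higher, at 10.98, 11.15 and 11.58 in aba2/ga20ox1 against 10.64, 10.05 and 9.88 in ga20ox1 (difference 1.05, adjusted p = 0.00429). None of 42 genes for photosynthesis on the chloroplast genome and none of 17 for its ribosome and RNA polymerase was called by limma in either direction, although 11 and 8 had an unadjusted p under 0.05. Over all probe sets tested 19.4% had such a p. The medians of the photosynthesis and the ribosome and polymerase lists were -0.35 and -0.56 in the ga20ox1 background, 0.20 and 0.41 in Col-0, and -0.22 and -0.37 in GA20OX1-OE. No gene was called among 17 serine carboxypeptidase-like genes (median -0.11, with 3 at an unadjusted p under 0.05) and 9 glutathione S-transferases (median 0.01, with 2). Of 10 beta-glucosidases ATA27 was called higher and BGLU44 lower (difference -0.81, adjusted p = 0.000747), and of 11 autophagy genes ATG8D was called higher (difference 0.57, adjusted p = 0.015, and up to 0.0995 with 1 array left out). Root markers, a check on the harvested tissue, included PYK10 with a difference of -0.69 (adjusted p = 0.124). EXPA18 had a fitted difference of -0.60 (adjusted p = 0.622), or -0.37 with the pseudocount. Its mean was under the bound in aba2/ga20ox1, and EXPA7 was under it in both genotypes. The summed signal of the root markers, 973 to 1227 on the aba2/ga20ox1 arrays and 1607 to 1826 on the ga20ox1 arrays, was therefore mostly that of PYK10. In all, 22 of the 43 lists had 3 or more genes tested, and 9 lists with 1 or 2 genes tested held no call, 2 of them the rosette leaf and root markers.

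Loss of ABA2 gave much the same direction of change whether GA20OX1 was mutated, wild type or overexpressed. The 3 comparisons share no arrays. Of the 459 probe sets higher in aba2/ga20ox1, 94.1% were also positive in aba2 minus Col-0 and 96.7% in aba2/GA20OX1-OE minus GA20OX1-OE. Of the 408 lower ones, 92.9% and 93.4% were negative there. Across all 15923 probe sets, which are not independent replicates, the differences correlated at r = 0.62 with those in Col-0 and at r = 0.64 with those in GA20OX1-OE.

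The calls themselves overlapped in part. Against Col-0, aba2 had 401 higher (2.52%) and 400 lower calls (2.51%), or 5.03% in all. The ga20ox1 background shared 232 of the higher ones (50.5% of its own and 57.9% of those in Col-0) and 211 of the lower ones (51.7% and 52.8%), with 0 called in opposite directions. Against GA20OX1-OE, aba2/GA20OX1-OE had 434 higher (2.73%) and 286 lower calls (1.8%), or 4.52% in all. The ga20ox1 background shared 208 of the higher ones (45.3% of its own and 47.9% of those in GA20OX1-OE) and 152 of the lower ones (37.3% and 53.1%), and 3 of its lower calls were higher there. In all 3 backgrounds 160 probe sets were called higher and 125 lower.

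Genes of this shared set included several of those with the largest changes. COR15A differed by -2.93 in the ga20ox1 background, by -3.66 in Col-0 and by -2.86 in GA20OX1-OE. AT4G21870 differed by 3.19, 3.29 and 2.99, and MSRB6 by -1.72, -2.07 and -1.83, in the same order. The defensin PDF1.2 differed by 1.98, 2.06 and 1.73. SWEET10, which was under the bound in ga20ox1, had pseudocount differences of 2.23, 2.78 and 2.34. AT5G07230 and ATA27 were also called higher in both other backgrounds.

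**Figure D4:**
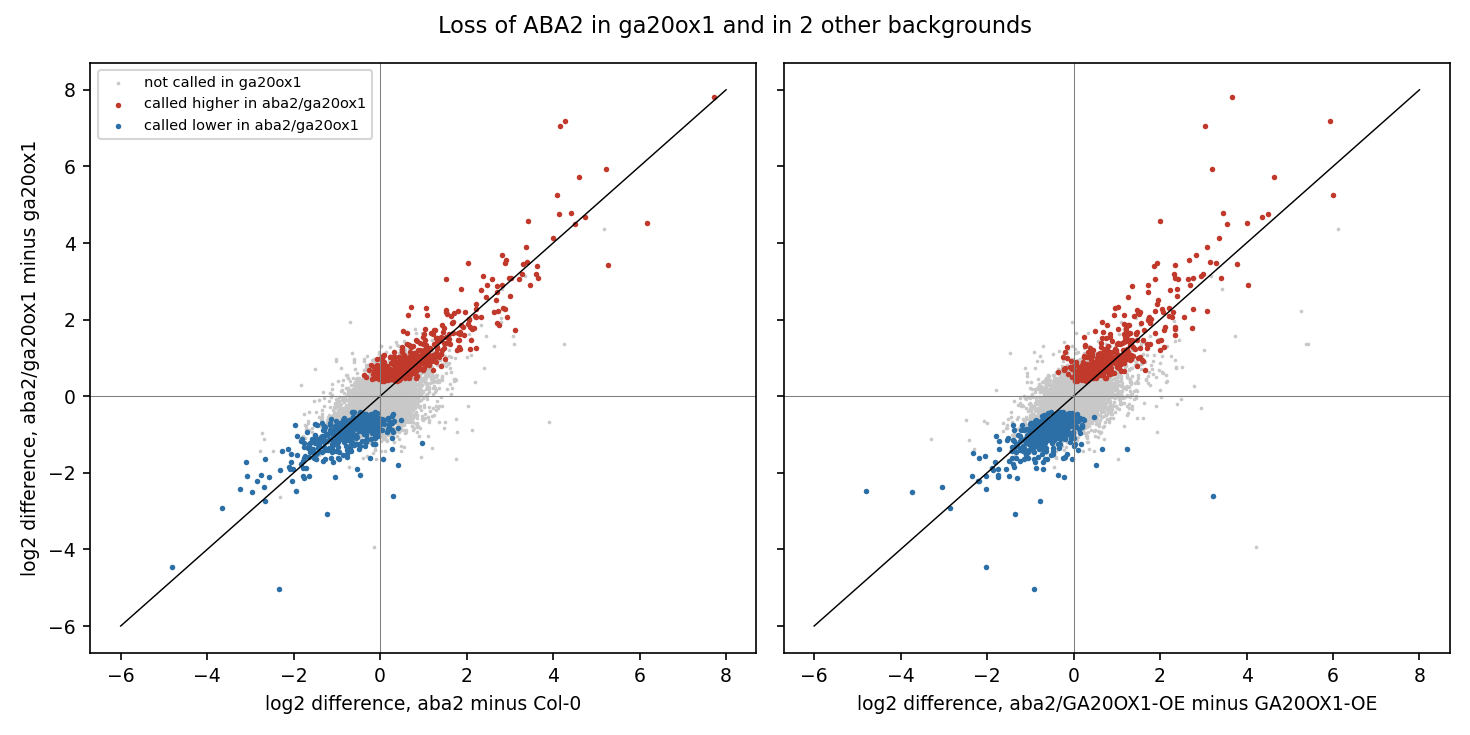
Log2 difference for aba2/ga20ox1 minus ga20ox1 (vertical axes) against that for aba2 minus Col-0 (left) and aba2/GA20OX1-OE minus GA20OX1-OE (right), 1 point per probe set tested, with a line of equal values. Called probe sets lie mostly in the lower left and upper right, with 443 points called in the same direction in the left panel and 360 in the right.

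In the ga20ox1 background alone, 179 probe sets were called higher and 167 lower. Of these 346 probe sets, 293 had the same sign in the Col-0 pair and 311 in the GA20OX1-OE pair, with smaller medians there, in probe sets that their call in the ga20ox1 background had picked out. The 179 higher ones had a median of 0.66 in the ga20ox1 background, 0.26 in Col-0 and 0.29 in GA20OX1-OE. The 167 lower ones had medians of -0.81, -0.26 and -0.35. Among named genes, AT2G20250 had pseudocount differences of -1.10, -0.30 and -0.26, and TBL15 of -1.08, -0.40 and -0.57, across the 3 backgrounds in that order (fitted differences of -2.06, -0.46 and -0.35, and of -1.90, -0.53 and -0.70). A call in 1 background and not in another does not show a difference between them, and the difference itself was tested. For the ga20ox1 against the Col-0 background limma called 0 probe sets, with 1156 at an unadjusted p under 0.05.

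Against the GA20OX1-OE background the difference itself was called for 13 probe sets (0.0816% of those tested), 3 with a more positive (0.0188%) and 10 with a more negative value (0.0628%) in the ga20ox1 background. The count was 0 in a fit restricted to the 4 genotypes involved and 3 to 20 with 1 array left out. The annotation named 5 of the probe sets, and each of these 5 calls was lost in the restricted fit (adjusted p of 0.068 to 0.225) and with at least 1 single array left out. ZW9 fell in both backgrounds, by a difference of -2.50 in ga20ox1 and -3.74 in GA20OX1-OE (difference of differences 1.24, adjusted p = 0.0347). AT2G43590 was at 10.25, 10.66 and 10.51 in aba2/ga20ox1 against 9.20, 9.22 and 9.16 in ga20ox1, a difference of 1.28 (adjusted p = 9.13e-05), and had a difference of -0.15 in GA20OX1-OE (difference of differences 1.42, adjusted p = 0.0247). AT4G21650 was at 6.17, 6.29 and 6.46 in aba2/ga20ox1 against 7.32, 7.51 and 8.22 in ga20ox1, lower by a difference of -1.38 (adjusted p = 0.0107), and was higher in the GA20OX1-OE background, by 1.24 (difference of differences -2.61, adjusted p = 0.0218). AT3G25290 and AT1G03820 had differences of -0.07 and 0.14 in the ga20ox1 background and of 2.48 and 1.46 in GA20OX1-OE. Of the 5 genes, ZW9, AT2G43590 and AT4G21650 were called in the ga20ox1 background, AT4G21650 not without ga20ox1 replicate 3 (adjusted p = 0.0743).

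**Figure D5:**
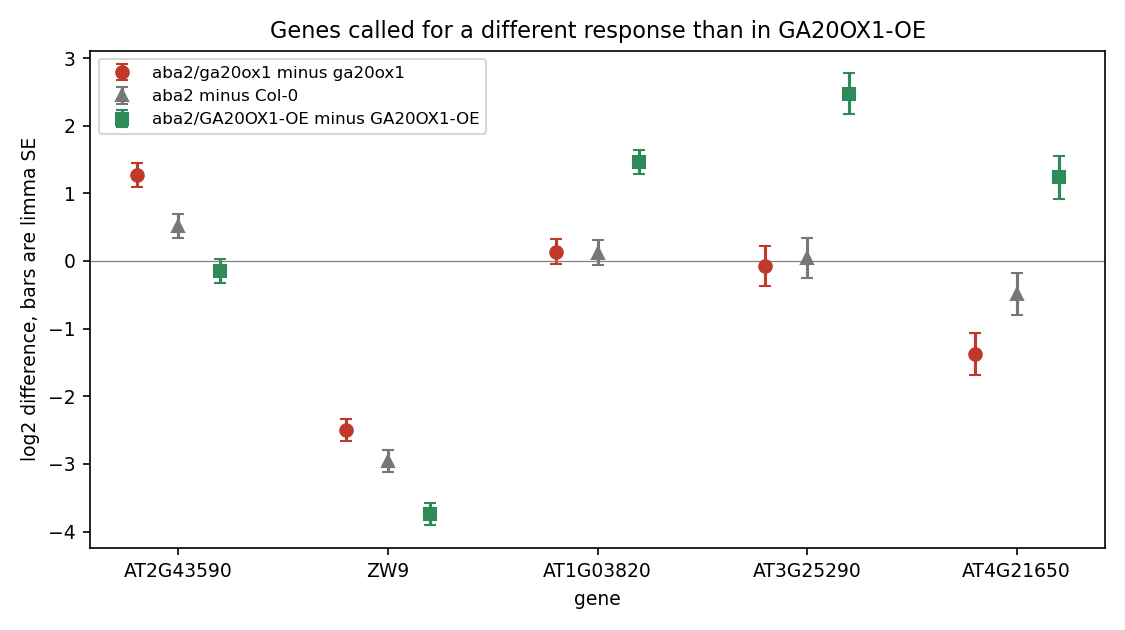
Log2 difference on loss of ABA2 (vertical axis, with limma SE) for the 5 named genes whose difference between the ga20ox1 and GA20OX1-OE backgrounds was called over all 21 arrays, calls that were lost in the fit restricted to the 4 genotypes, with circles for aba2/ga20ox1 minus ga20ox1, triangles for aba2 minus Col-0 and squares for aba2/GA20OX1-OE minus GA20OX1-OE. ZW9 is under 0 in all 3, and AT4G21650 is at -1.38 in the ga20ox1 background and at 1.24 in GA20OX1-OE.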

How the data were processed

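RNA from 21 samples was measured on single-colour Affymetrix arrays, 3 per genotype. The deposited values are intensities on a linear scale, made by the authors with MAS5, per the submitters' processing notes. The mean of each array, trimmed by 2% at each end, was 500, so the arrays had been scaled before deposit. The labels name no software version. Here log2 was taken, 64 control probe sets were removed, and the lowest 30% of the other 22746 by mean were left out. A limma 3.58.1 fit (R 4.3.3) with 7 genotype means over all 21 arrays and an intensity trend gave each comparison, adjusted by Benjamini-Hochberg over 15923 probe sets. The number of arrays limits the precision.

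Genes named were the 12 largest rises and falls called, the 4 smallest p-values each way, members of lists (all up to 6, otherwise up to 4 called each way), the 2 largest changes each way without a gene, and called differences between backgrounds. The largest changes and smallest p-values were taken only where the arrays of the genotypes compared did not overlap. Members of lists with 1 or 2 genes tested and no call, tissue markers aside, were left out after their values were seen. Members and lists were chosen with earlier results of these data known. Of these, 8 lists were added after the annotation was read. Probe sets were named by the platform annotation and TAIR10.1 locus tables. The labels do not say what a shared replicate number stands for, so numbers were not treated as pairs. Same-numbered arrays of aba2/ga20ox1 and ga20ox1 correlated at -0.02, 0.04 and -0.19 in their deviations, and differently numbered ones at -0.25 to 0.24. With so few arrays, whose deviations sum to 0 in each genotype, this check cannot exclude a batch shared by replicate number. Alternatives were array weights, groups alone, a replicate block, other filters, a pseudocount, quantile normalization, no trend and arrays left out. The fit was also run on simulated data with independent noise and no batch, a run that cannot speak to the dependence on single arrays.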

Additional observations from a re-analysis of the deposited data

Results flagged for a closer look

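For 5 named genes the effect of losing ABA2 differed between the ga20ox1 and GA20OX1-OE backgrounds by limma's test of the difference itself. The difference of differences, ga20ox1 background minus GA20OX1-OE background, was 1.24 for ZW9, 1.42 for AT2G43590, -2.61 for AT4G21650, -2.55 for AT3G25290 and -1.32 for AT1G03820. Each of these calls was lost in a fit restricted to the 4 genotypes involved, and again without both aba2/GA20OX1-OE replicate 3 and GA20OX1-OE replicate 2, a setting chosen after seeing the data. With single arrays left out, AT3G25290 lost its call without GA20OX1-OE replicate 2 (adjusted p = 0.0558) and without GA20OX1-OE replicate 3 (adjusted p = 0.0557). The highest adjusted p with 1 array left out was 0.116 for ZW9, 0.0722 for AT2G43590, 0.083 for AT4G21650 and 0.205 for AT1G03820. All 5 kept the sign of the difference in every setting run.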

How the results depend on the processing

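Against 867 calls for aba2/ga20ox1 against ga20ox1, array quality weights gave 3339 (1626 higher and 1713 lower), the 2 groups alone 559, the replicate block 1195, and 1 array left out at a time 460 to 1048. The aba2 against Col-0 count of 801 was 491 to 739 with 1 array left out. The aba2/GA20OX1-OE count of 720 became 1384 with weights, 378 with the 2 groups alone, 321 without both aba2/GA20OX1-OE replicate 3 and GA20OX1-OE replicate 2, and 412 to 556 with 1 array left out. The difference from Col-0 (0 calls) became 23 with weights and 1 with the groups alone, and stayed 0 with any single array left out. The difference from GA20OX1-OE (13 calls) became 82 with weights, 5 without those 2 arrays, 0 with the groups alone, 6 without the intensity trend, 21 with the replicate block and 3 to 20 with 1 array left out. Quantile normalization gave 479 higher and 373 lower of 852 in the ga20ox1 background. The cause of these moves was not tested. The labels do not say what the array numbers stand for. With them as a block the calls also rose from 801 to 1096 in aba2 against Col-0. In aba2/GA20OX1-OE against GA20OX1-OE they rose from 720 to 983, and a batch by array number was not tested. Of 66 named genes called, 43 kept the call in every setting run, 22 lost it with an array left out and 15 in another setting, and none changed sign. Of 24 not called, 6 changed sign: XTH16 (0.049 with weights), AT3G25290 (0.017 with quantile normalization, and -0.30 to 0.16 with 1 array left out), AT4G14090 (-0.29 to 0.41), UGT74B1 (-0.23 to 0.012), SPCH (-0.041 to 0.65) and LCR69 (-0.25 to 0.068).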

Other observations

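Some of the largest changes were in probe sets with no gene in the annotation used here. The probe set 245622_at was at 8.01, 7.82 and 8.12 in aba2/ga20ox1 against 0.14, -0.42 and 0.81 in ga20ox1 (pseudocount difference 3.68), and 252063_at was at 8.91, 8.58 and 9.44 in aba2/ga20ox1 against 0.94, 3.44 and 1.02 in ga20ox1 (pseudocount difference 4.41). In the other direction, 251977_at was at -0.28, 3.11 and 3.28 in aba2/ga20ox1 against 7.19, 7.11 and 6.93 in ga20ox1 (pseudocount difference -2.57). Such probe sets were chosen only where the arrays of the genotypes did not overlap, and all 3 pairs of groups were separated by more than 3 log2 units.

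Among genes next to each other on a chromosome in TAIR10.1, 3060 pairs had both members tested and 15 had both called, 9 in the same and 6 in opposite directions. Over all probe sets tested 5.44% were called, and whether 15 pairs are more than this share would give was not tested. AT4G23670 was at 10.28, 10.49 and 10.26 in aba2/ga20ox1 against 11.58, 11.75 and 12.08 in ga20ox1 and was called lower, while its neighbour AT4G23680 was at 7.58, 6.18 and 7.75 in aba2/ga20ox1 against 2.75, 4.33 and 3.76 in ga20ox1 and was called higher. SWEET10 and SWEET13 were another such pair. ROXY2, a glutaredoxin of anther development, was called higher with a difference of 2.12, and its neighbour AT5G14080 lower with -0.71.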
